A study of Mus musculus with 2 samples.

Results

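The genes described here are the 7 Socs genes, Socs1 to Socs7, and Cish, which together form the family of cytokine signalling suppressors. They were taken by symbol from the probe sets that carry exactly 1 gene symbol, which gave 8 of 22180 genes and 11 of 41345 probe sets. Socs2, Socs3 and Cish have 2 probe sets each and the other 5 genes have 1. The probe set with the higher mean of both arrays stood for the gene, and the second one is given beside it. No probe set with several symbols carried the symbol of one of the 8 genes.

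The data are 2 Affymetrix whole-transcript arrays of liver RNA, 1 control and 1 irradiated. Both came from male C57BL/6 mice, a common inbred laboratory strain, aged 9 weeks. The irradiated group received 1 whole-body dose of 6 Gy of gamma rays under anaesthesia at 4 weeks of age, at 0.81 Gy per minute, and its liver was taken 5 weeks later. Handling of the control at the time of exposure, and whether an RNA is that of 1 mouse or of several, are not in the labels. With 1 array in each group no difference below has a replicate check, no test could be run and no p-value is given. The number of arrays limits the precision.

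SOCS proteins are feedback inhibitors of cytokine receptors. A cytokine or growth hormone activates Janus kinases (JAKs) at its receptor, the kinases phosphorylate STAT transcription factors, and the STATs switch on Socs genes, whose products then block the receptor complex. Each protein has an SH2 domain, which binds phosphotyrosine, and a SOCS box, which recruits an elongin and cullin ubiquitin ligase. In liver, Socs3 is best known as the brake on interleukin-6 signalling through STAT3, Socs2 and Cish as brakes on growth hormone signalling through STAT5, and Socs1 as the brake on interferon signalling.

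RefSeq promoter windows on mouse build GRCm38.p6 run from 250 bases before to 50 bases after the start of a gene. Windows of 4 of the 8 genes, and of no other member, were analysed here: Cish, Socs1, Socs3 and Socs4. They were searched for TTCNNNGAA, the core of STAT sites, which reads the same on both strands, and on both strands for GAAANNGAAA, the core of interferon regulatory factor sites, where matches may overlap. The stretches with matches are shown for Socs3, Socs1 and Cish. Socs3 and Cish are classical STAT targets and had the largest differences of the 8 genes. A link of matches to differences was not tested. All are printed 5′ to 3′ on the strand of the gene, with the matches in capitals. The windows are Socs3, 250 bases before the start on the minus strand at chr11:117969367-117969616; Socs1, 250 bases before the start on the minus strand at chr16:10785537-10785786; and Cish, the 30 bases from the start on the plus strand at chr9:107296659-107296688.
Socs3: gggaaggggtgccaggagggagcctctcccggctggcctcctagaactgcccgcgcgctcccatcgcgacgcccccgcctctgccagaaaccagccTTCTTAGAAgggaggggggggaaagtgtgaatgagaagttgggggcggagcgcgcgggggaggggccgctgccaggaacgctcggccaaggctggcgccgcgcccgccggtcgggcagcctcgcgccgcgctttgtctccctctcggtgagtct
Socs1: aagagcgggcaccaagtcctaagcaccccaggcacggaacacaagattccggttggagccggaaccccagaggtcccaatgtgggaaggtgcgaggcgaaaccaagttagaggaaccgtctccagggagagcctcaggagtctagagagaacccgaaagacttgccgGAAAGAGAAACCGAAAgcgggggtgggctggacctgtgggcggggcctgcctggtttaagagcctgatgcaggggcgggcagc
Cish: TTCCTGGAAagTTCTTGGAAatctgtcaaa

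The Socs3 window held 1 match to TTCNNNGAA, TTCTTAGAA, which begins 154 bases before the start. The Cish window held 2, TTCCTGGAA from base 1 of the gene and TTCTTGGAA from base 12. Socs1 held no match to TTCNNNGAA but 2 overlapping matches to GAAANNGAAA, which begin 83 and 77 bases before the start. The letters of neither motif were found in the Socs4 window. Of all 32851 windows on record, 8.3% held TTCNNNGAA and 3.44% held GAAANNGAAA. Among the 13586 windows of expressed genes the shares were 6.7% and 2.99%. A match describes letters in a window. The arrays do not measure binding there.

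Values are the log2 values the authors made with RMA, which removes background, brings the arrays to 1 distribution and reduces the probes of a set to 1 value. A difference is irradiated minus control on that scale, so that 1 is a doubling. A gene counted as expressed if at least 1 of its values was 6.06 or more, the median over the whole table. This floor is a rank and not a measured background. All 8 genes were expressed, with both values above the floor, among 13689 expressed genes in all.

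Socs3, the inducible brake on interleukin-6 signalling, was the member with the largest difference. The control value was 7.52 and the irradiated value 8.36, which makes a difference of 0.84 or 1.79-fold. Of the 13689 expressed genes, 69 had a higher difference and 104 a larger one in either direction. Its second probe set was at 5.68 and 5.88, below the floor on both arrays, with a difference of 0.20. Both probe sets were higher on the irradiated array, but the sizes were apart by 0.65, and only the brighter one passed 1.5-fold.

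Cish, a STAT5 target and the first member of the family to be described, was second in size. Its values were 7.73 in the control and 8.17 in the irradiated sample, a difference of 0.44 or 1.35-fold. The second Cish probe set read 7.25 and 7.44, a difference of 0.19. Both lay above the floor, both were higher after irradiation, and neither reached 1.5-fold.

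Socs2, the regulator of growth hormone receptor signalling, read 10.68 in the control and 10.95 in the irradiated sample, a difference of 0.28 or 1.21-fold. Its second probe set read 6.96 and 7.44, a larger difference of 0.47 or 1.39-fold. The order of the probe sets was thus the opposite of that for Socs3 and Cish, where the brighter one differed more. All 6 probe sets of these 3 genes were higher on the irradiated array.

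Socs1, the brake on interferon signalling, was at 6.49 and 6.71, a difference of 0.22. Socs5, linked to interleukin-4 and epidermal growth factor receptor signalling, read 6.67 and 6.80, a difference of 0.14. Socs4, which acts on the epidermal growth factor receptor, read 8.12 and 8.11, a difference of -0.01, the smallest of the 8. Socs6 read 6.54 in the control and 6.39 in the irradiated sample, a difference of -0.15. Socs7, which like Socs6 has been tied to insulin signalling, read 7.70 and 7.61, a difference of -0.09. For none of Socs4 to Socs7 did the difference exceed 0.15 in size.

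**Figure D1:**
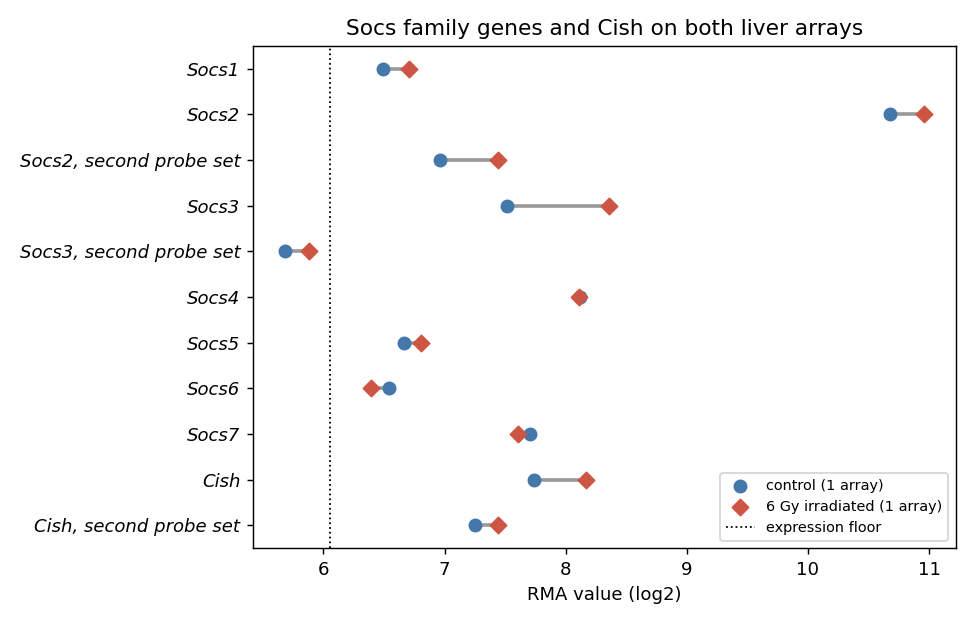
RMA values (log2, horizontal axis) of the 11 probe sets of the 7 Socs genes and Cish on the control array (circles) and the irradiated array (diamonds), with the expression floor as a dotted line. The widest step is that of Socs3, from 7.52 to 8.36, and its second probe set is the only one with both points below the floor.

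By size, 1 of the 8 genes (Socs3) was at least 1.5-fold higher and 0 were at least 1.5-fold lower. The share of all expressed genes past that size was 1.14% on the higher side and 0.65% on the lower side. At a size of 25% higher, or lower by the same factor, 2 of the 8 were higher (Socs3 and Cish) and 0 lower, against 4.65% higher and 3.75% lower among all expressed genes. Above 0 were 5 of the 8, against 48.5% of all expressed genes. The median difference of the 8 genes was 0.18, and that of all expressed genes -0.00, with the central 95% of genes between -0.37 and 0.42. Socs3 and Cish lay outside that central range and the other 6 genes inside it.

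To allow for level, each member was also set beside the expressed genes whose mean lay within 0.5 of its own. For Socs3, 22 of 2738 such genes (0.804%) had a larger difference in either direction. For Cish the count was 100 of 2744 (3.64%). For Socs2 it was 67 of 897 (7.47%). Socs1 was exceeded in size by 1011 of 4045 genes near its level and Socs5 by 1718 of 3827 (44.9%). For Socs6 the share was 44.2%, for Socs7 56.0% and for Socs4 94.9%. The differences of these last 5 genes were thus of a size common among genes of their level.

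**Figure D2:**
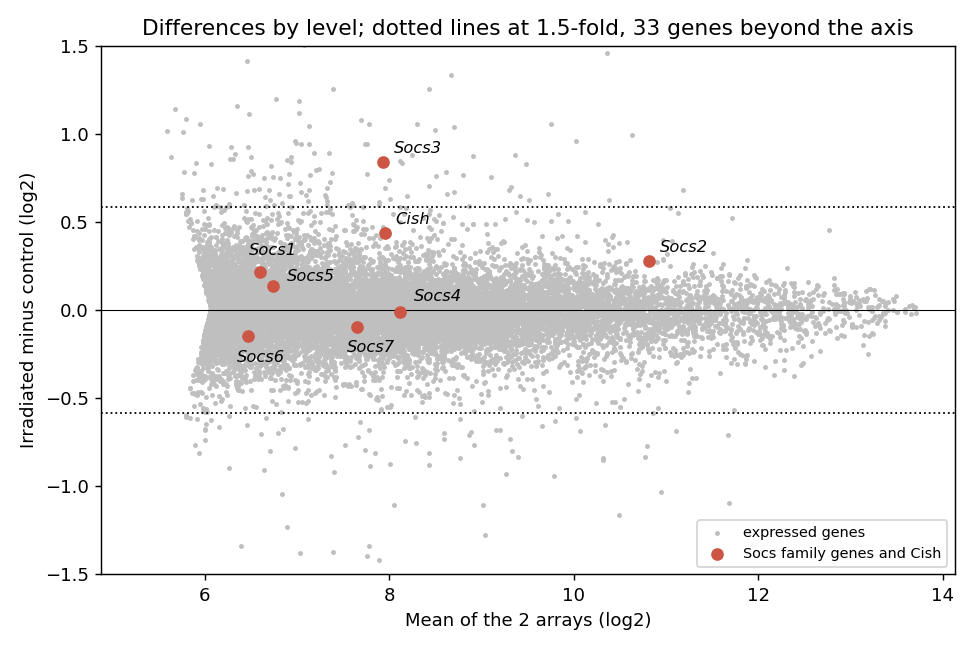
Irradiated minus control difference (log2, vertical axis) against the mean of both arrays (log2) for all expressed genes in grey and for the 7 Socs genes and Cish in red, with dotted lines at 1.5-fold. Of the members only Socs3, at 0.84, lies past a dotted line, and 33 other genes lie beyond the vertical axis.

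The second probe sets give the only repeat reading of a gene in these data, on the same RNA. Among 460 genes whose top 2 probe sets were both above the floor and not identical, the differences of the pair were apart by a median of 0.15, and 5% of pairs were apart by more than 0.52. The pair had the same sign in 259 of them (56.3%). The Cish pair was apart by 0.25 and the Socs2 pair by 0.20. The Socs3 pair, of which 1 was below the floor and which is not among the 460, was apart by 0.65. In 20 of the 460 genes at least 1 probe set was 1.5-fold different, and in 2 of these 20 both were, in the same direction. Probe sets of a gene can read different exons or isoforms, and this was not looked up here.

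**Figure D3:**
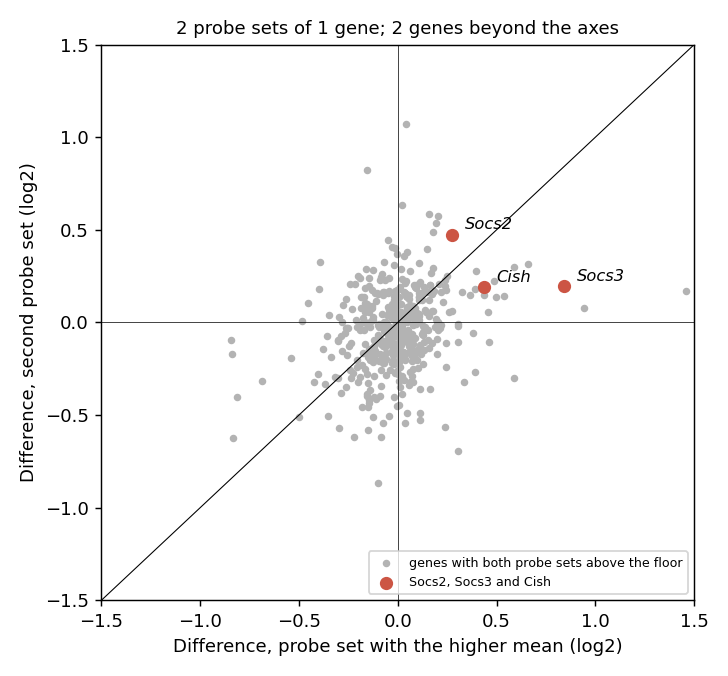
Irradiated minus control difference (log2) of the brighter probe set (horizontal) and of the second probe set (vertical) of a gene, for 460 genes in grey and for Socs2, Socs3 and Cish in red, with the line of equality. All 3 red points lie in the upper right, Socs2 above the line and Cish and Socs3 below it, and 2 grey genes lie beyond the axes.

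The ligands of the pathway come first. Of 24 measured cytokine and hormone genes 13 were expressed and 11 lay below the floor on both arrays. The expressed ones had a median difference of -0.09, with 3 above 0 and 9 below, and 0 were 1.5-fold different in either direction. Il6 was below the floor on both arrays, at 4.01 and 4.06. The largest expressed differences were those of Clcf1, a ligand of the gp130 receptor family, at 0.40, and Csf1, the macrophage growth factor gene, at 0.29. Osm, which encodes the gp130 ligand oncostatin M and was named after its value was seen, was as far on the lower side, from 6.39 to 6.10, a difference of -0.29. Ligand made outside the liver would not be seen in these values.

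Among the receptors, 23 of 23 measured genes were expressed, with a median difference of 0.00, and 1 was 1.5-fold higher and 1 lower. The higher one was Il22ra1, which encodes the epithelial receptor chain for interleukin-22, from 8.12 to 8.88, a difference of 0.76. The lower one was Lepr, the leptin receptor gene, from 7.90 to 7.14, a difference of -0.77. The interleukin-6 receptor genes Il6ra and Il6st, the latter for gp130, differed by 0.16 and -0.09. Ghr, the growth hormone receptor gene, differed by 0.07, and Epor, the erythropoietin receptor gene, by -0.35. The prolactin receptor gene Prlr had no probe set of its own and was not analysed here.

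The kinases and transcription factors between receptor and Socs gene differed little. Of 9 measured JAK and STAT genes 8 were expressed, and these lay between -0.17 and 0.14, with a median of 0.03. Stat3, which drives Socs3, read 10.86 and 11.01, a difference of 0.14. Stat5a and Stat5b, which drive Cish and Socs2, differed by -0.17 and -0.09, against differences of 0.44 and 0.28 for Cish and Socs2 themselves. Jak1 and Jak2 each differed by 0.03, and Tyk2 by 0.08. Jak3 had no probe set of its own and was not analysed here. RNA levels do not show the phosphorylation by which these proteins act.

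The ligase that the SOCS box recruits was measured through 8 genes, all expressed, with a median difference of -0.08 and 0 past 1.5-fold. The elongin genes Elob and Eloc differed by 0.06 and -0.16, the scaffold genes Cul5 and Cul2 by -0.07 and 0.07, the ring finger gene Rnf7 by -0.11 and the ubiquitin-like modifier gene Nedd8 by -0.15. The second probe sets of Elob and Cul5 differed by -0.12 and 0.23, with the opposite sign to the first. Rbx1 was not analysed here.

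A list of other brakes on the pathway, such as phosphatases and PIAS proteins, had a median difference of 0.09 over 22 expressed genes, 14 of them above 0. It also held Nfkbia, Tnfaip3, Zfp36 and Lrg1, which are not direct brakes on JAKs or STATs. Only Bcl6, which encodes a repressor of STAT-driven transcription, was 1.5-fold higher, from 8.57 to 9.16, a difference of 0.59. It lies close to that threshold, and with 32 added to the values on the linear scale it fell short of it, at 0.55. No gene of this list was 1.5-fold lower.

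Genes known as targets of the same STATs were read by list. Interleukin-6 and STAT3 target genes had a median difference of 0.08, and 24 of the 33 expressed ones were above 0, with 2 past 1.5-fold higher and 1 lower. The higher ones were Lcn2, an iron-sequestering acute phase protein, from 7.15 to 8.23 (1.08), and the serum amyloid gene Saa2 from 8.95 to 9.64 (0.68). The orosomucoid gene Orm3 was lower, from 7.79 to 6.96 (-0.83). Saa and Orm genes have near-identical copies, whose probes can cross-hybridise.

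Growth hormone and STAT5 target genes had a median of -0.02 over 20 expressed genes, 9 of them above 0. The list holds genes more abundant in male and in female liver alike. Past 1.5-fold higher were Bcl6, whose call was lost with 32 added as above, and Gadd45g, a growth arrest gene, from 9.49 to 11.22 (1.73). Cyp2b9, a cytochrome P450 of female liver, was lower, from 8.18 to 5.62 (-2.56), with the irradiated value below the floor. Igf1, the main growth hormone target of liver, differed by 0.15. Interferon target genes had a median of 0.06 over 23 expressed genes, with 0 past 1.5-fold in either direction. The largest differences there were those of Ifit3 (0.39) and Irf7 (0.36), and Irf1, which shares interferon induction with Socs1, differed by -0.21.

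Immediate early genes, which like Socs3 can be induced within minutes of a stimulus, had the highest median of the 10 lists set beside the family, 0.25 over 25 expressed genes, with 22 above 0. Of them 6 were at least 1.5-fold higher and 0 lower. The transcription factor gene Egr1 read 7.34 and 9.61, a difference of 2.27. Myc was 3.20-fold higher, Fos 2.84-fold and the antiproliferative gene Btg2 2.08-fold. Their part in the Socs3 difference was not tested, and the labels do not give the time from death to RNA isolation.

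**Figure D4:**
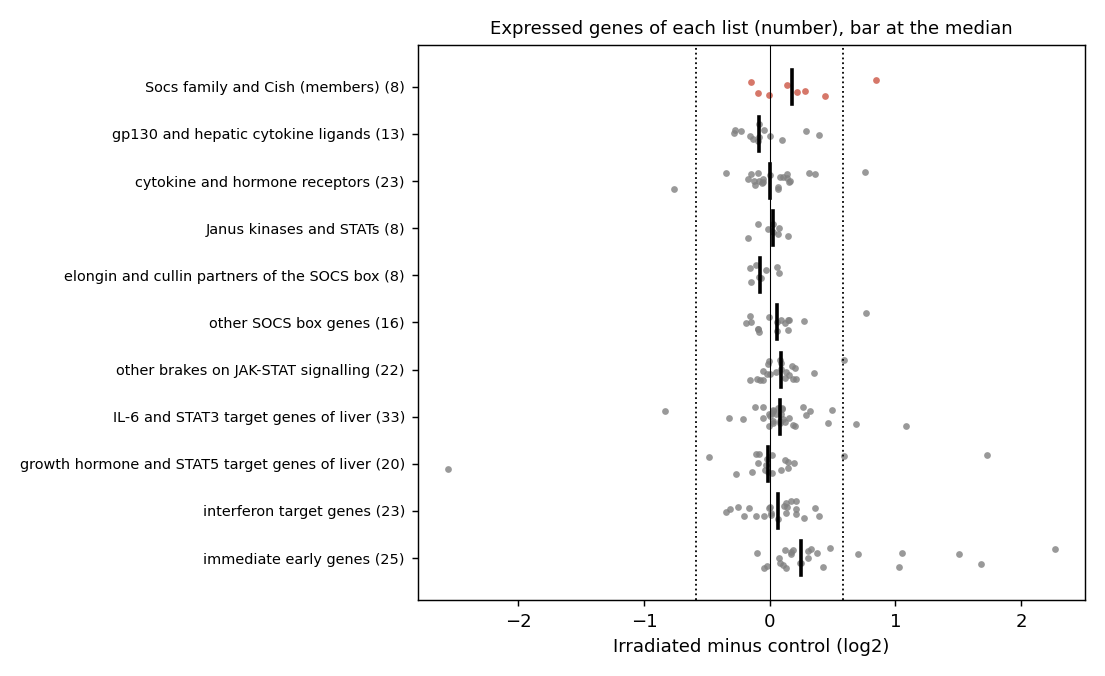
Irradiated minus control differences (log2, horizontal axis) of the expressed genes of each list, 1 point a gene, with the number of genes in parentheses, a bar at the median and dotted lines at 1.5-fold. The Socs family and Cish are in red, with a median of 0.18, and the immediate early genes at the bottom have a median of 0.25.

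Markers of some other cells also differed between the arrays. A difference in the number of cells of a type and a difference in RNA per cell cannot be told apart in whole liver. Hepatocyte markers had a median difference of -0.01 over 11 expressed genes, and all but Ass1 were bright. Alb differed by 0.01, Fah by -0.12 and Ass1, at 7.61 and 7.81, by 0.20. Bile duct markers had a median of 0.72 over 10 expressed of 12 measured genes, and the median over all 12 was 0.56. Of the expressed ones 6 were 1.5-fold higher, led by Muc1 (6.14-fold) and Cd24a (5.65-fold). The next genes were named after their values were seen. Krt19, Anxa13, Epcam and Prom1 were also past that size, at 1.20, 1.12, 0.75 and 0.69. Krt7, Pkhd1 and Sox9 differed by 0.29, 0.22 and 0.19. Below the floor on both arrays, Cftr and Cldn7 differed by 0.44 and 0.07. A second, dimmer Cd24a probe set read 4.92 and 6.03, both under the floor, a difference of 1.10. The summed level of the list on the log2 scale was 12.2 in the control and 12.5 in the irradiated sample. The gene with the largest value in that sum was Onecut1, a hepatocyte and duct factor gene at 11.83 and 11.74, and without it the other 9 genes summed to 9.90 and 11.2. Stellate cell and smooth muscle markers had a median of 0.27 over 13 genes, 4 of them 1.5-fold higher, led by Cnn1 (2.42) and Acta2 (1.97), with summed levels of 12.9 and 13.3. The 4 were the contractile genes Cnn1, Acta2 and Tagln and the muscle filament gene Des. The stellate cell genes Lrat, Reln, Hgf and Pdgfrb, named after their values were seen, differed by 0.18, 0.01, 0.07 and -0.01. Of the rest of the list, Myh11, also a contractile gene, differed by 0.40. Col3a1, Col1a1, Rgs5 and Dcn differed by 0.31, 0.27, 0.16 and 0.14. Pancreas and gut genes had a median of 0.32 over 12 measured genes. The 8 expressed ones, 4 of which passed the floor only on the irradiated array, had a median of 1.85 that this filter raises. Of them 5 were 1.5-fold higher, led by Dmbt1 (5.66) and Reg1 (3.83), both below the floor in the control. The rest of the list was named after its values were seen. Muc3, Ctrb1 and Lgals4 were also past that size, at 2.79, 2.65 and 1.06. Vil1, Cela1 and Muc2 differed by 0.28, -0.02 and -0.06. Below the floor on both arrays, Reg3b, Prss1, Cpa1 and Prss2 differed by 0.37, 0.23, 0.02 and -0.15. The summed levels of the 8 expressed genes were 9.51 and 12.0, and these sums and the count of 5 rest on the same filter. The part of these marker genes in the values of Socs3, Cish and Il22ra1 was not tested.

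Macrophages and lymphocytes also use Socs genes. The macrophage and Kupffer cell list had a median difference of 0.11 over 15 genes, 11 above 0 and 1 of them, Cd14 at 0.65 from a control value below the floor, 1.5-fold higher. Vsig4, a Kupffer cell receptor, differed by 0.40. The 4 genes below 0, named after their values were seen, were Cd163 (-0.29), C1qc (-0.08), Itgam (-0.05) and Adgre1 (-0.05). The summed level of the list was 13.0 in the control and 13.2 in the irradiated sample. T, NK and B cell markers had a median of 0.00 over 7 expressed of 13 measured genes, from Cd79a at -0.30 to Cd3g at 0.23. Of 10 neutrophil markers 8 were below the floor on both arrays, and the other 2, Csf3r and Cxcr2, differed by 0.31 and -0.18. Endothelial markers had a median of -0.08 over 12 genes, 5 above 0 and 7 below, with 0 of them 1.5-fold different. Lyve1 differed by 0.26 and Emcn by 0.24. Tek, the lowest of the list and named after its value was seen, differed by -0.17.

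The 3 other expressed genes closest to Socs3 by the Euclidean distance of the pair of values on both arrays were Bmp4 (0.11), a growth factor gene, Ppl (0.11), which encodes periplakin, and Olfr1034 (0.18), an olfactory receptor gene. Their differences were 0.69, 0.74 and 0.61. Likeness over 2 arrays says only that a gene had a similar level and step.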

How the data were processed

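The authors' deposited table gives a log2 value for every probe set on each of 2 arrays. RMA and Affymetrix Expression Console 1.3.1 are named in the submitters' processing notes. That the scale is log2 was read from the range of the values, 1.46 to 13.9. RMA normalizes the arrays to each other, so a difference in total RNA per cell cannot be seen. No build of the array is named in the labels.

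Gene symbols are those of GEO's platform table, some of them possibly outdated: 23521 probe sets had 1 symbol, 1814 several and 16010 none. Genes took the probe set with the highest mean. Scripts ran in Python 3.11.15 with pandas 2.3.3 and were checked on simulated arrays. Genes were counted by a size of 1.5-fold in place of a test.

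Genes named beside the members were, per pathway list, up to 4 expressed genes of the largest size past 1.5-fold, or the top 2 where none passed; the top 2 of each marker list; genes fixed by name, 1 of which is not reported here; and the 3 nearest to a member past 1.5-fold, leaving out predicted genes and small RNAs. Members, lists and motifs were chosen with earlier results of these data known. Other probe set choices, floors, scalings, an offset and other sizes were tried as alternatives.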

Additional observations from a re-analysis of the deposited data

How the results depend on the processing

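No paired analysis was possible because there was only 1 sample on each side. Of 12 alternatives, 10 recomputed the differences and the rest changed only the size used for counting. Among the differences recomputed, only those of Socs3 and Bcl6 were past 1.5-fold, and neither changed direction. A change of floor leaves a single difference as it is. All alternatives reuse the same 2 arrays and measure no support. Choosing the probe set with the lowest mean was added after seeing the data. The Socs3 difference lay between 0.74 and 0.85 under every alternative that kept its brighter probe set, was 0.52 with the mean of its probe sets and 0.20 with the dimmer one, so 0 members were then 1.5-fold higher. At 2-fold 0 members were higher, and at a size of 25% higher 2 were. Cish lay between 0.19 and 0.45, Socs2 between 0.27 and 0.47, and Socs1 between 0.16 and 0.22. Socs4 changed sign, between -0.01 and 0.00, and Socs5, Socs6 and Socs7 kept theirs. The median of the ligand genes went from -0.09 to 0.10 with the floor at the 75th percentile, since fewer genes were then left. The expressed genes at least 1.5-fold higher, 156, became 95 with 32 added on the linear scale, 70 with the floor at the 75th percentile and 272 with no filter. The lower ones, 89, became 197 with no filter. At that smaller size 637 were higher and 514 lower, and at 2-fold 44 and 25.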

Other observations

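The SOCS box is shared by other substrate adaptors of ubiquitin ligases, among them the Asb, Spsb and Wsb genes. Of 27 such genes measured, 16 were expressed, with a median difference of 0.06 and 9 above 0. Only Wsb1, which encodes a WD repeat adaptor, was at least 1.5-fold different. It read 8.41 in the control and 9.18 in the irradiated sample, a difference of 0.77, close to that of Socs3 (0.84). These values, like all others here, come from 1 array per group, and no explanation was tested.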
